A study of Mus musculus with 22 samples.

Results

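RNA of isolated ventricular cardiomyocytes was compared between 3 CASK KO mice and 3 CASK control mice, the 6 of the 22 samples in the series whose titles carry the CASK label. CASK KO mice carried a floxed Cask gene and the Cre recombinase under the alpha-myosin heavy chain promoter (MHC-Cre), which acts in heart muscle cells. CASK control mice carried the same Cre and no floxed gene, so that both groups express Cre and differ in the floxed allele. All 6 were males of a mixed genetic background, aged 11.3, 10.6 and 10.1 weeks in CASK KO replicates 1 to 3 and 12.4, 12.7 and 11 weeks in CASK control replicates 1 to 3. Each library came from one mouse, and nonmyocyte cells can remain after enzymatic isolation.

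CASK is a scaffold protein of the membrane-associated guanylate kinase family. In neurons it binds neurexins and syndecans at the membrane and can enter the nucleus, where it works with the T-box factor Tbr1. In cardiomyocytes it is known to associate with dystrophin at the lateral membrane. The targeted gene and the classical genes of fetal cardiac stress serve here only as a check, and the text is about the genes outside them.

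The CASK KO libraries held 32765612 to 42159185 counts and the CASK control libraries 33988592 to 40469641, of which mitochondrially encoded genes took 30.4 to 45.8% in CASK KO and 23.6 to 42.0% in CASK control, and 14963 of 47069 listed genes passed the filter on low counts. Levels below are read counts scaled to library size (CPM) with factors from the trimmed mean of M-values (TMM), and a log2 fold change is CASK KO over CASK control with its standard error (SE). Cask itself was at 2.48, 1.55 and 0.606 CPM in CASK KO libraries, against 9.998, 8.80 and 8.87 CPM in CASK control libraries, 16.8% of the control mean. Of the 11 tested stress genes, 11 had lower means in CASK KO (median -1.08 on the log2 scale), and Nppa, the atrial natriuretic peptide gene, was at 27.5, 38.3 and 27.3 CPM in CASK KO against 281, 527 and 163 CPM in CASK control. Markers of ventricular cardiomyocytes summed to 51777 to 61046 CPM in CASK KO and 52657 to 60068 CPM in CASK control, so the labelled cell type was present in each library.

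No gene passed an adjusted p of 0.01 in the unblocked edgeR quasi-likelihood fit with Benjamini-Hochberg adjustment (0 of 14963 genes, 0%), where the smallest adjusted p was 0.0847. At an unadjusted p under 0.05, 678 genes (4.53%) were higher and 645 (4.31%) lower in CASK KO, and leaving out CASK control replicate 2 reduced the total of 1323 to 753. Libraries of the same number deviated together, so the fit with the replicate number as a block is given beside the unblocked one. No label pairs the mice, so calls with the block rest on a pairing taken from these same counts. With the block, which edgeR fitted as a further term, 4 genes (0.0267%) were higher and 7 (0.0468%) lower at an adjusted p of 0.01. DESeq2, run without the block, called 35 genes higher (0.234%) and 81 lower (0.541%), of which 9 were also among the 11 genes of the blocked fit. All 3 CASK KO libraries lay above all 3 CASK control libraries for 991 genes (6.62%) and below them for 1150 genes (7.69%). These shares are the background against which the lists below are read. Below, "passed" refers to the adjusted p of 0.01 in the fit named, and all other differences are given as values. Genes given with an edgeR adjusted p above 0.01 can still be among the DESeq2 calls, as were Krt18, Neat1, Timp1, Tgfb2 and Kcnv2.

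Of the 11 genes that passed with the replicate block, 9 were neither Nppa nor the skeletal actin gene Acta1. Dmd, which encodes dystrophin and lies on chromosome X, was at 210, 145 and 182 CPM in CASK KO, against 51.2, 49.7 and 42.7 CPM in CASK control. Its log2 fold change of 1.90 (SE 0.18) had an adjusted p of 0.0847 by edgeR without the block and of 0.00551 with it. Ctnna3, an alpha-catenin that links cadherin to actin at the intercalated disc, was at 37.1, 22.7 and 37.0 CPM in CASK KO, against 8.82, 7.43 and 10.4 CPM in CASK control. For both genes the groups were widely separated, with no CASK KO library near the highest CASK control library. The log2 fold change of Ctnna3 was 1.86 (SE 0.23), with an edgeR adjusted p of 0.0971 without the block and 0.00493 with it.

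Mybpc2, the fast skeletal form of myosin-binding protein C, was at 19.3, 27.6 and 20.5 CPM in CASK KO, against 84.0, 85.4 and 63.7 CPM in CASK control (log2 fold change -1.79, SE 0.20, edgeR adjusted p = 0.0971 without and 0.00551 with the block). Gcnt1, a glycosyltransferase that branches O-linked sugars, was at 5.37, 3.83 and 2.78 CPM in CASK KO, against 24.9, 18.8 and 9.76 CPM in CASK control. Edn3, which encodes endothelin 3, was at 2.03, 3.02 and 1.35 CPM in CASK KO, against 7.55, 11.1 and 4.99 CPM in CASK control. In these 3 genes the groups did not overlap, and CASK control replicate 3 was the control nearest to the CASK KO libraries. Lgals3, the gene of galectin 3, was at 0.999, 1.66 and 0.496 CPM in CASK KO, against 6.14, 10.6 and 3.14 CPM in CASK control. Adjusted p-values by edgeR for Gcnt1, Edn3 and Lgals3 were 0.166, 0.208 and 0.208 without the block and 0.00493, 0.00733 and 0.00493 with it. Their log2 fold changes were -2.16, -1.88 and -2.65, and with age as a covariate -1.13, -1.08 and -1.35. Gcnt1 and Lgals3 were singled out after their values were seen.

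**Figure D1:**
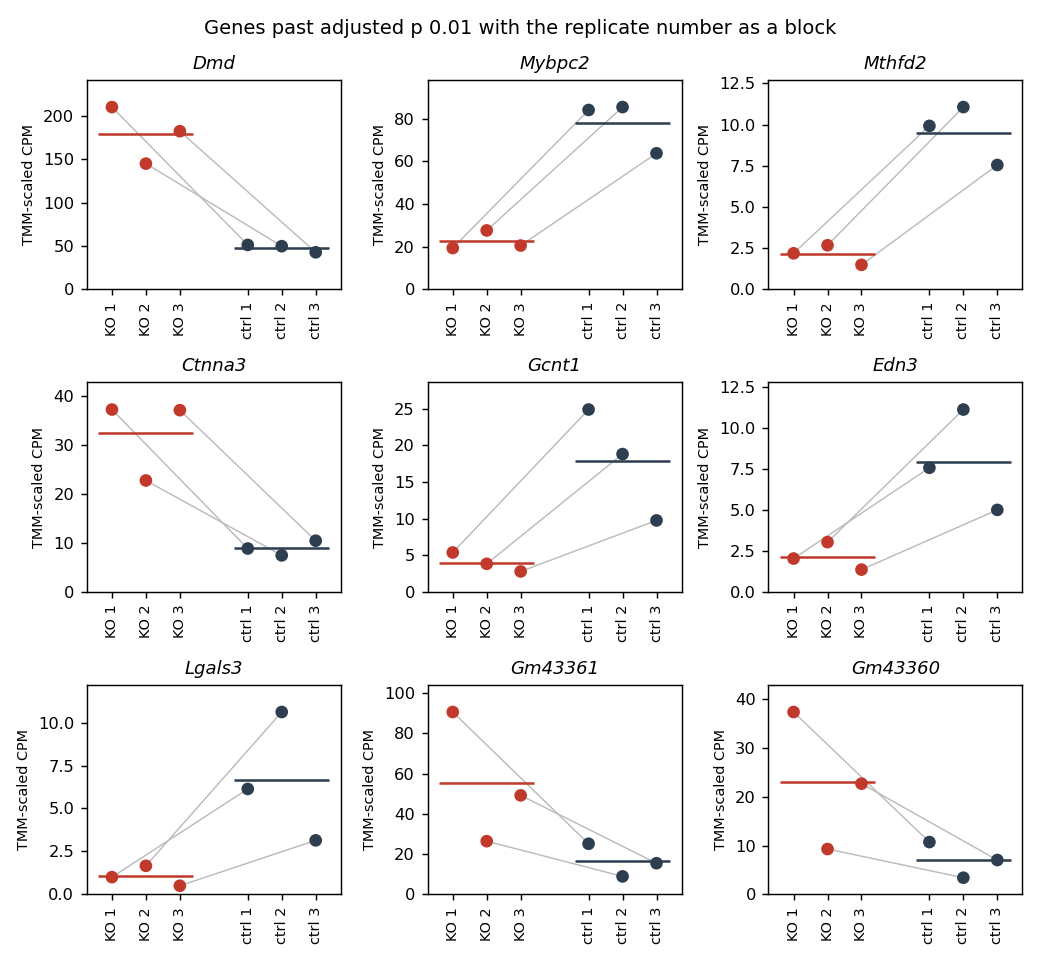
TMM-scaled CPM (vertical axis, linear, from 0) of the 9 genes outside the stress list that passed an adjusted p of 0.01 in the edgeR fit with the replicate block. Red points are CASK KO libraries and dark points CASK control libraries, horizontal bars are group means, and grey lines join libraries of the same number. The 3 CASK KO libraries are apart from the 3 controls in 8 panels, narrowly for Gm43361 (26.4 CPM in CASK KO replicate 2, 25.1 CPM in CASK control replicate 1), while Gm43360 overlaps.

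Outside the stress list, the genes of the amino acid response had the lowest median of the metabolic and stress lists. The lists were chosen with earlier results of these data known, so this rank only describes them. When amino acids are scarce or mitochondria are stressed, the factor ATF4 raises genes that make and import amino acids, supply one-carbon units through folate, and encode the secreted factors FGF21 and GDF15. ATF4 works through composite elements whose letters, TGATGNAA, can be searched in promoters. Of 27 tested genes, 22 had lower and 5 higher means in CASK KO, and the median log2 fold change was -0.43, against 0.01 over all tested genes. With an unadjusted p under 0.05 there were 11 lower members and 1 higher one, and 12 lay below all controls. By the adjusted p, 1 gene passed with the block and 6 with DESeq2, all of them lower.

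Windows of 60 bases that end before the start site are printed for 4 of the 5 genes of this list and of the tRNA synthetases with these letters and an unadjusted p under 0.05, since they show what the search found. The match in Trib3 does not end before the start site and is not printed. The sequences are RefSeq promoter entries on GRCm38.p6, 5′ to 3′ on the strand of the gene, with the matching letters in capitals (in Fgf21 and Gars the match is on the opposite strand). Asns lies at chr6:7693210-7693269 on the minus strand, Fgf21 at chr7:45615596-45615655 on the minus strand, Pycr1 at chr11:120643818-120643877 on the minus strand and the tRNA synthetase gene Gars at chr6:55037941-55038000 on the plus strand.
Asns: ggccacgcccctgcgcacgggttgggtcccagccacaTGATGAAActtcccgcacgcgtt
Fgf21: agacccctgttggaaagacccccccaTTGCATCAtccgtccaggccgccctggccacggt
Pycr1: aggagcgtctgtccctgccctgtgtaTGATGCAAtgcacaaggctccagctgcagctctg
Gars: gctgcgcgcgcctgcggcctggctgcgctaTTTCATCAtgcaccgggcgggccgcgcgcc
The matches end 15, 131, 95 and 22 bases before the RefSeq start site in Asns, Fgf21, Pycr1 and Gars. In the gene coordinates joined to the counts, Asns begins further upstream, at position 7693254, so that its match lies within the annotated gene. In windows of 250 bases before to 50 after the start, the letters were found on either strand in 9 of 24 amino acid response genes with an entry (37.5%), 5 of 12 tRNA synthetase genes (41.7%) and 267 of 10014 tested genes (2.67%). The 9 genes with the letters had a median log2 fold change of -0.50 and the 15 without them of -0.33. These shares follow from which genes were listed, such as those that ATF4 raises, and are no result of the expression values. A match describes the sequence and was not tied to binding by any measurement here.

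Mthfd2, the mitochondrial folate enzyme that is among the most responsive ATF4 targets, was at 2.19, 2.68 and 1.49 CPM in CASK KO, against 9.93, 11.1 and 7.55 CPM in CASK control (log2 fold change -2.17, SE 0.26, edgeR adjusted p = 0.0971 without and 0.00493 with the block). Asns, asparagine synthetase, was at 1.24, 0.856 and 0.689 CPM in CASK KO, against 5.85, 8.44 and 3.47 CPM in CASK control. Its log2 fold change was -2.67 (SE 0.38), with an edgeR adjusted p of 0.138 without the block and 0.0125 with it. In both genes the groups were well separated, and with age as a covariate the log2 fold change of Asns was -1.67.

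The secreted factors of this response also had lower means. Gdf15 was at 4.08, 8.22 and 3.58 CPM in CASK KO, against 40.2, 25.3 and 13.8 CPM in CASK control (log2 fold change -2.32, SE 0.44). Fgf21 was at 0.108, 0.187 and 0.055 CPM in CASK KO, against 2.01, 0.776 and 0.413 CPM in CASK control, a few reads per library in CASK KO (log2 fold change -3.16, SE 0.71). Trib3, a pseudokinase induced late in the response, was at 0.864, 0.749 and 0.882 CPM in CASK KO against 3.81, 3.22 and 1.52 CPM in CASK control. CASK control replicate 3 was the lowest control for each of these 3 genes, and with age as a covariate the log2 fold changes of Gdf15 and Trib3 were -1.48 and -0.96, against -2.32 and -1.77 without it. Psat1 of serine synthesis (log2 fold change -1.39), Pycr1 and Aldh18a1 of proline synthesis (-1.21 and -0.64) and Slc3a2, the heavy chain of amino acid carriers (-0.56), were also below all controls. Cth, which makes cysteine from cystathionine, went the other way, at 1.57, 1.66 and 1.21 CPM in CASK KO, against 0.599, 0.388 and 0.744 CPM in CASK control. The transcription factor genes Atf4, Ddit3 and Atf3 overlapped between the groups, as the plot of this list by library shows.

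The cytosolic tRNA synthetases, which load amino acids onto transfer RNAs, had 19 of 20 members with a lower mean in CASK KO and a median log2 fold change of -0.21. The differences were small: 2 had an unadjusted p under 0.05, Gars at 44.2, 45.9 and 39.4 CPM in CASK KO against 59.8, 71.8 and 49.0 CPM in CASK control, and Sars with a log2 fold change of -0.50 (SE 0.18), and no member passed. The median of the amino acid response lay between -0.57 and -0.29 when each library was left out, and that of the synthetases between -0.31 and -0.17. With age as a covariate they were -0.33 and -0.17.

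**Figure D2:**
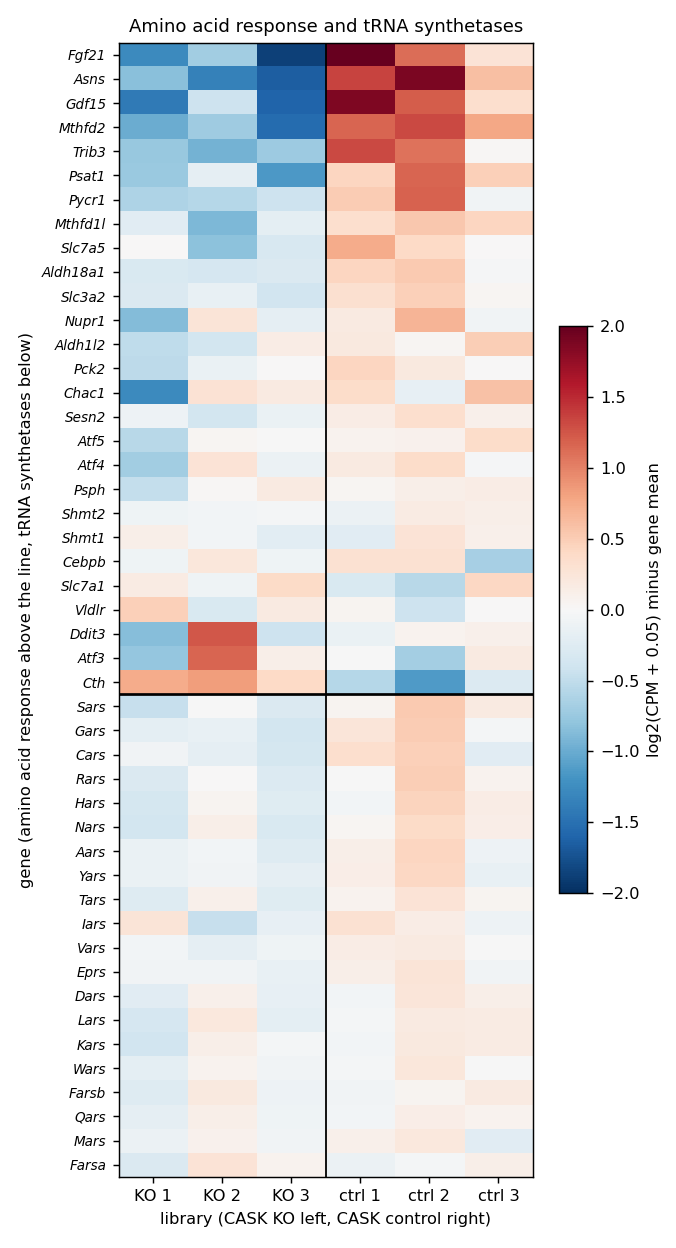
Heat map of log2(CPM + 0.05) minus the mean of each gene over the 6 libraries, for 27 amino acid response genes (above the line) and 20 tRNA synthetases (below), ordered within each list by log2 fold change. Columns are libraries, CASK KO left of CASK control, and colours run between -2 and 2. The upper 11 genes are blue or near white in all CASK KO libraries, and CASK control replicate 3 is paler than the other controls in most of them.

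Genes of the contractile apparatus and the cytoskeleton outside the stress list had lower means in part. Of the skeletal and atrial isoforms, 16 of 26 were tested, 12 had lower means and 4 higher, and the median was -0.49, which ranged from -0.95 to -0.08 when each library was left out, the last without CASK control replicate 3. Atrial cardiomyocyte markers, of which Sln is also on this list, had lower means in 6 of 6 tested genes and summed to 33.9 to 72.3 CPM in CASK KO and 231 to 535 CPM in CASK control. Without Nppa the 7 others summed to 6.37, 33.9 and 27.8 CPM in CASK KO, against 12.1, 7.61 and 68.7 CPM in CASK control, highest in CASK control replicate 3, and no atrial marker was at 0 in all libraries. Their part in the list was not tested. Among the 4 with higher means was Myh7b, a slow myosin heavy chain that hosts a microRNA, at 73.4, 104.9 and 50 CPM in CASK KO, against 37.0, 33.1 and 35.8 CPM in CASK control (log2 fold change 1.11, SE 0.25). Ankrd2, a stretch-responsive ankyrin repeat protein, and Ryr1, the skeletal ryanodine receptor, were under 2 CPM in every library, with log2 fold changes of -2.25 (-1.12 with age as a covariate) and -1.38.

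Krt18, a keratin of simple epithelia that stressed cardiomyocytes also make, was at 0.351, 1.151 and 0.910 CPM in CASK KO, against 7.84, 8.26 and 3.78 CPM in CASK control (log2 fold change -3.04, SE 0.46, edgeR adjusted p = 0.138 and, with the block, 0.0348). Tubb2b, a beta-tubulin, was at 0.945, 1.20 and 1.10 CPM in CASK KO, against 3.79, 3.82 and 2.37 CPM in CASK control. Synm, the intermediate filament protein synemin, was at 6.24, 4.18 and 5.82 CPM in CASK KO, against 15.6, 17.4 and 8.71 CPM in CASK control. Each of the 3 was below all controls, and the log2 fold change of Synm was -1.36, or -0.69 with age as a covariate. In the list of tubulins and intermediate filaments, 16 of 19 members had lower means, 7 of them at an unadjusted p under 0.05 (median -0.23).

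In the adult sarcomere 17 of 27 members had lower means, but the median was only -0.08, and 2 reached an unadjusted p under 0.05. Those were Synpo2l, an actin-binding protein of the Z-disc, at 90.1, 41.4 and 83.5 CPM in CASK KO against 246, 179 and 128 CPM in CASK control, and Des, which encodes desmin, at 992, 1230 and 1005 CPM in CASK KO against 1941, 2289 and 1238 CPM in CASK control. Of the intercalated disc genes, Xirp2 (log2 fold change -1.29, SE 0.34, and -0.41 with age as a covariate), Nrap (-0.60, SE 0.18) and the plakophilin gene Pkp2 (-0.39, SE 0.14) were below all controls while Ctnna3 was above them. In the actin cytoskeleton 23 of 39 had lower means with a median of -0.19, which turned to 0.12 with age as a covariate, and CASK control replicate 3 was the lowest control in 30 of the 39. Tln1, the integrin linker talin 1, was at 158, 98.5 and 125 CPM in CASK KO, against 226, 215 and 164 CPM in CASK control.

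In the list of the dystrophin complex and costamere, Dmd included, 9 of 26 had higher and 17 lower means, with a median of -0.04. Sntb1, a syntrophin that binds dystrophin, was at 4.40, 3.35 and 3.50 CPM in CASK KO, against 8.73, 10.4 and 5.76 CPM in CASK control (log2 fold change -1.14, SE 0.25, and -0.53 with age as a covariate), opposite to Dmd in direction. Utrn, the dystrophin homologue utrophin, was at 140, 74.6 and 91.8 CPM in CASK KO, against 114, 103 and 94.7 CPM in CASK control, with overlapping groups.

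Extracellular matrix genes, which fibroblasts make more than myocytes, had lower means in 35 of 39 members, with a median log2 fold change of -0.35. At an unadjusted p under 0.05, 10 were lower and 1 was higher, and only 3 lay below all controls. Timp1, an inhibitor of matrix metalloproteases, was at 1.11, 2.38 and 0.689 CPM in CASK KO, against 6.93, 9.28 and 3.00 CPM in CASK control (log2 fold change -2.20, SE 0.53, edgeR adjusted p = 0.271 and, with the block, 0.0107, and a log2 fold change of -0.98 with age as a covariate). Cilp, a matrix protein of cartilage and heart, was at 3.83, 3.64 and 1.79 CPM in CASK KO, against 16.0, 20.6 and 3.22 CPM in CASK control. Postn, periostin, was at 12.4, 11.6 and 11.7 CPM in CASK KO, against 40.6, 49.2 and 10.8 CPM in CASK control, so that CASK control replicate 3 was within the CASK KO range for Cilp and below it for Postn. This library was the lowest control for 36 of the 39 matrix genes. Thbs2, a thrombospondin, was above all controls (log2 fold change 0.53, SE 0.16). Without CASK control replicate 3 the median was -0.51, and with age as a covariate it was 0.06, with 20 of 39 higher. In bulk RNA, fewer cells of a type and less RNA per cell cannot be told apart. The 10 fibroblast markers summed to 338 to 447 CPM in CASK KO and 295 to 549 CPM in CASK control. Of these markers 8 had lower means, among them Postn, Col1a1, Col1a2 and Col3a1, which are matrix genes themselves. The 2 with higher means were Pdgfra and Gsn. The part of fibroblasts in the matrix values was not tested.

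Secreted growth factors were split, with 22 of 42 tested members higher and 20 lower. Tgfb2, a transforming growth factor, was at 7.34, 3.35 and 4.77 CPM in CASK KO, against 35.0, 28.3 and 11.0 CPM in CASK control (log2 fold change -2.27, SE 0.45, edgeR adjusted p = 0.208 and, with the block, 0.0429). Inhba, an activin subunit, and Fstl3, a follistatin-like antagonist of activin, had log2 fold changes of -1.87 (SE 0.41) and -1.60 (SE 0.38), at under 5 CPM in all libraries, and were below all controls. With age as a covariate the log2 fold changes of Tgfb2, Inhba and Fstl3 were -1.04, -1.27 and -0.54. Of the list, 2 were higher and 8 lower at an unadjusted p under 0.05.

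Among the classes of genes that the annotation defines, non-coding loci inside other genes had the highest medians. Loci annotated as TEC, a class still awaiting experimental proof (339 tested), had a median log2 fold change of 1.02, and 42 sense intronic loci of 1.21, against 0.00 for 12591 protein-coding genes. At an unadjusted p under 0.05, 27.1% of TEC loci were higher and 0.59% lower. Of the TEC loci, 256 lay wholly within the span of a protein-coding gene, 215 of them on the same strand, and the hosts had a median log2 fold change of 0.08. Antisense genes (282 tested) had a median of 0.45 and long intergenic RNAs (267 tested) of 0.25. The counting is not stated to use strand, so reads of antisense loci and of their partners may not be told apart.

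The share of reads outside any annotated feature moved with these loci. It was 12.6, 4.24 and 4.97% in CASK KO libraries and 5.73, 3.17 and 3.25% in CASK control libraries, highest in CASK KO replicate 1. The median TEC level, on the log2 scale relative to the mean of each locus, was -0.31 in CASK KO replicate 2 and 0.12 in CASK control replicate 1, so the groups overlapped. Without CASK KO replicate 1 the median of TEC loci was 0.35 and that of sense intronic loci 0.41. The part of this share in the medians was not tested.

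The TEC loci Gm43361 and Gm43360 were the ones that passed with the replicate block, were named after their values were seen, and lie within Atp2a2, which encodes the calcium pump of the sarcoplasmic reticulum. Gm43361 (chr5:122496159-122500848, opposite strand to Atp2a2) was at 90.6, 26.4 and 49.1 CPM in CASK KO, against 25.1, 8.89 and 15.4 CPM in CASK control (log2 fold change 1.75, SE 0.49, edgeR adjusted p = 0.343 and, with the block, 0.00493). Gm43360 (chr5:122492022-122494908, same strand) was at 37.4, 9.29 and 22.7 CPM in CASK KO, against 10.7, 3.40 and 7.03 CPM in CASK control. The host Atp2a2 was at 11059, 11076 and 11660 CPM in CASK KO, against 9140, 7787 and 10237 CPM in CASK control (log2 fold change 0.32, SE 0.23). In each pair of libraries of the same number both loci were higher in CASK KO, and replicate 1 was the highest of each group, as it was for the share of reads outside features.

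**Figure D3:**
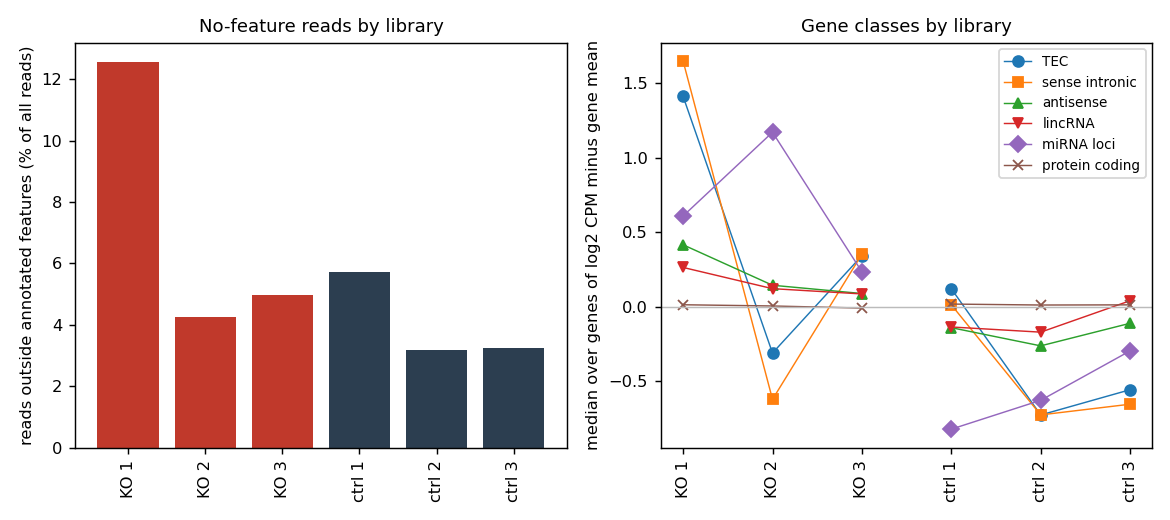
Left, reads outside annotated features as a percentage of all reads in each library (bars from 0, CASK KO red, CASK control dark). Right, the median over genes of log2 CPM minus the mean of the gene, for 6 gene classes in each library (miRNA loci are the 21 genes with Mir names), with lines joining libraries of 1 group. CASK KO replicate 1 has the highest bar (12.6%) and the highest medians of TEC and sense intronic loci, while the protein-coding median stays near 0 in all 6 libraries.

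The median of long genes depended on CASK KO replicate 1. Of 126 protein-coding genes that span over 500 kb, 12.7% were higher and 3.97% lower at an unadjusted p under 0.05, against 3.18 and 4.66% of all protein-coding genes. Dmd and Ctnna3 are of this class, of which 2 genes passed with the block and 6 with DESeq2, all higher. Dpyd, which degrades pyrimidines, was at 7.18, 6.69 and 7.99 CPM in CASK KO, against 1.80, 1.58 and 2.62 CPM in CASK control (log2 fold change 1.86, SE 0.23, edgeR adjusted p = 0.0971 and, with the block, 0.0107). Immp2l, a mitochondrial peptidase gene, and Erbb4, the neuregulin receptor, had log2 fold changes of 1.28 (SE 0.21) and 1.57 (SE 0.32). Pard3b, a cell polarity gene, was at 11.6, 8.22 and 10.5 CPM in CASK KO, against 5.28, 4.18 and 4.80 CPM in CASK control. Dpyd, Immp2l and Erbb4 were singled out after their values were seen. Without CASK KO replicate 1 the class had 12 genes higher and 13 lower at an unadjusted p under 0.05, and its median turned to -0.06, against 0.12 with all libraries. The shares over all protein-coding genes in that fit are not given here, so these counts are set only beside each other. Dmd and Ctnna3 kept log2 fold changes of 1.77 to 2.13 and 1.68 to 2.06 over all alternatives.

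Nuclear long non-coding RNAs were higher in 15 of 16 tested members, with a median log2 fold change of 0.49. With DESeq2 3 passed, all higher, and with the block 0. Neat1, the RNA scaffold of paraspeckles, was at 764, 538 and 325 CPM in CASK KO, against 168, 148 and 153 CPM in CASK control (log2 fold change 1.79, SE 0.30, edgeR adjusted p = 0.149 and, with the block, 0.0321). Malat1, which is retained in nuclear speckles, was at 4798, 3604 and 2431 CPM in CASK KO, against 1685, 1461 and 1197 CPM in CASK control (log2 fold change 1.32, SE 0.29). Firre, an X-linked RNA that organises nuclear domains, was at 14.5, 14.6 and 10.6 CPM in CASK KO, against 5.97, 7.64 and 7.33 CPM in CASK control. For these 3 every CASK KO library exceeded every control, and in Neat1 and Malat1 replicate 1 was the highest CASK KO library. Mhrt, an RNA transcribed antisense to the Myh7 gene, had a log2 fold change of 0.85 (SE 0.27) with overlapping groups.

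Splicing and other RNA-binding factors had 30 of 35 members with a higher mean and a median of 0.29. At an unadjusted p under 0.05, 10 were higher (28.6% of the list) and 0 lower, and 11 lay above all controls, none of them past an adjusted threshold. Pnisr, a serine- and arginine-rich nuclear protein, was at 29.0, 26.7 and 20.9 CPM in CASK KO, against 16.6, 17.3 and 16.7 CPM in CASK control. Rbfox1, a muscle and brain splicing regulator, was at 18.8, 19.4 and 20.2 CPM in CASK KO, against 9.93, 8.56 and 15.9 CPM in CASK control. Sfpq, which long genes need for transcription, was at 40.8, 35.3 and 39.2 CPM in CASK KO, against 30.7, 27.7 and 25.7 CPM in CASK control. For each of these no CASK KO library reached the control range, and CASK control replicate 3 was the highest control for Rbfox1. Without CASK KO replicate 1 the median was 0.23, with 27 of 35 higher.

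Of 22 tested loci of the annotated microRNA type, 19 had higher and 3 lower means in CASK KO (median 0.93), with 9 higher and 1 lower at an unadjusted p under 0.05. The 21 genes with Mir names, 4 of them longer host transcripts such as Mir22hg, had a median of 0.98. Short inserts were removed before sequencing, so the reads come from longer RNA over the locus and not from mature microRNAs. The mature products of the pair of loci in myosin genes are shown because they share their seed. The sequences are RefSeq entries on GRCm38.p6, with bases 2 to 8 in capitals, and both loci lie on the minus strand, at chr14:54949072-54949093 for miR-208a-3p within Myh6 and chr14:54975710-54975731 for miR-208b-3p within Myh7.
mmu-miR-208a-3p: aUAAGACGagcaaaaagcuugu
mmu-miR-208b-3p: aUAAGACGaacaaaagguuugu
The 2 sequences of 22 bases differ at 3 positions. Mir208b was at 7.42, 5.14 and 2.98 CPM in CASK KO, against 0.863, 1.58 and 1.46 CPM in CASK control (log2 fold change 1.997, SE 0.38), while its host Myh7, a gene of the stress list, had a log2 fold change of -1.08. Mir208a was at 3.73, 8.32 and 5.62 CPM in CASK KO, against 0.815, 1.91 and 2.89 CPM in CASK control (log2 fold change 1.66, SE 0.46), while its host Myh6 had one of 0.05 (SE 0.24). Mir1a-1, a locus on chromosome 2 whose product is the most abundant microRNA of heart muscle, was at 2.21, 2.25 and 1.21 CPM in CASK KO, against 0.312, 0.179 and 0.331 CPM in CASK control (log2 fold change 2.76, SE 0.39). These loci rest on few reads and were chosen after their values were seen. None of them passed with the block, while Mir1a-1 and Mir208b passed with DESeq2 (adjusted p = 1.69e-06 and 0.000200) and Mir208a did not (0.0273). The median of the microRNA type was 0.77 to 1.20 when each library was left out.

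CASK is known as a regulator of ion channels in the membrane. Of 26 tested potassium current genes, 18 had higher means (median 0.23), and 5 were higher and 1 lower at an unadjusted p under 0.05. Kcnv2, a silent subunit that modifies other voltage-gated channels, was at 5.81, 5.11 and 5.73 CPM in CASK KO, against 2.59, 1.999 and 2.76 CPM in CASK control (log2 fold change 1.18, SE 0.19). Its edgeR adjusted p was 0.149 and, with the block, 0.0502, while it passed with DESeq2 (adjusted p = 0.000125). Kcnj2, the main inward rectifier of ventricular cells, was at 70.3, 63.8 and 82.0 CPM in CASK KO, against 31.5, 35.0 and 49.7 CPM in CASK control. Kcnd2, a channel of the transient outward current, was at 28.4, 26.8 and 28.3 CPM in CASK KO, against 16.3, 11.2 and 20.2 CPM in CASK control. For these 3 the groups did not overlap. Kcnj3, an acetylcholine-gated rectifier, had a log2 fold change of 0.75 (SE 0.24), and Kcne1, an accessory subunit of the slow delayed rectifier, of -0.83 (SE 0.20). Kcnd3, Kcnip2 and Kcna5 overlapped between the groups, with log2 fold changes of 0.09 (SE 0.32), 0.14 (SE 0.18) and -0.41 (SE 0.32).

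Of 25 tested sodium and calcium current genes, 15 had higher and 10 lower means (median 0.18, and -0.03 without CASK KO replicate 1), and 1 was higher and 4 lower at an unadjusted p under 0.05. Cacna1c, the L-type calcium channel, was at 392.1, 205 and 272 CPM in CASK KO, against 307, 235 and 215 CPM in CASK control. The groups overlapped, and CASK KO replicate 1 was the highest library. The accessory subunit genes Cacnb1, of calcium channels, and Scn3b, of sodium channels, were below all controls at up to 5.44 CPM (log2 fold changes -0.80 and -1.06). Ryr2 (log2 fold change 0.32, SE 0.27) and the connexin gene Gja1 (0.20, SE 0.19) overlapped.

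Of 33 tested genes listed as partners or relatives of CASK and SAP97, 20 had higher and 13 lower means. At an unadjusted p under 0.05, 3 were higher and 2 lower, the latter Sdc2 and Mpp6 (log2 fold changes of -0.47 to -0.31 over 15 alternatives for Mpp6). The median of 0.06 was -0.04 without scaling factors and lay between -0.10 and 0.13 when each library was left out. Mpp3, a guanylate kinase scaffold of the same family, was at 2.54, 2.01 and 1.60 CPM in CASK KO, against 0.983, 0.895 and 0.854 CPM in CASK control (log2 fold change 1.16, SE 0.27), and Dlg3, which encodes SAP102, had a log2 fold change of 0.82 (SE 0.28). Sdc2, the syndecan that binds the CASK PDZ domain, was at 22.3, 23.6 and 20.1 CPM in CASK KO, against 32.7, 33.3 and 25.8 CPM in CASK control (log2 fold change -0.48, SE 0.15). Mpp3, Dlg3 and Sdc2 were outside the control range, none passed, and the edgeR adjusted p was 0.268, 0.436 and 0.404. Dlg1, which encodes SAP97, was at 58.5, 53.9 and 54.3 CPM in CASK KO, against 58.2, 50.7 and 53.1 CPM in CASK control (log2 fold change 0.04, SE 0.13). Lin7c, of the complex with CASK, had a log2 fold change of -0.13 (SE 0.12). Id1, an inhibitor of helix-loop-helix factors, overlapped (0.15, SE 0.29), and Tbr1 had 1 count in all CASK KO libraries and 0 in all CASK control libraries.

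Genes of mitochondrial energy metabolism had higher means by small amounts, and that direction did not hold with age in the model. Fatty acid oxidation had 26 of 30 members higher with a median of 0.22, the tricarboxylic acid cycle 17 of 21 with 0.12 and the nuclear-encoded respiratory chain 58 of 73 with 0.12. With age as a covariate these 3 medians were -0.09, -0.11 and -0.47, and that of the respiratory chain was -0.16 without CASK KO replicate 2. In the respiratory chain 0 genes had an unadjusted p under 0.05 in either direction, and CASK control replicate 1 was the lowest control in 66 of 73. Cpt1b, the muscle form of the carnitine transferase that admits fatty acids to mitochondria, was at 4.73, 4.92 and 3.97 CPM in CASK KO, against 2.09, 2.75 and 3.00 CPM in CASK control (log2 fold change 0.80, SE 0.21). Read pairs that counting left as ambiguous made up 12.0, 22.3 and 17.1% in CASK KO libraries and 17.4, 16.7 and 20.6% in CASK control libraries. The part of this share in the levels was not tested. Of the glycolysis and glucose uptake genes, 11 had higher and 17 lower means (median -0.03), with 2 higher and 2 lower at an unadjusted p under 0.05. Among them, Pfkfb1 and Pfkfb2, which set the level of a regulator of glycolysis, were above all controls (log2 fold changes 1.79, SE 0.37, and 0.77, SE 0.21), and the platelet phosphofructokinase gene Pfkp below them (-0.79, SE 0.26). Ppargc1a, a coactivator of mitochondrial genes, was at 109, 77.7 and 86.99 CPM in CASK KO, against 64.4, 55.8 and 68.3 CPM in CASK control.

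Interferon-response genes were higher in 23 of 26 members (median 0.27), with 4 higher and 1 lower at an unadjusted p under 0.05. Rsad2, the antiviral protein viperin, was at 5.75, 7.15 and 7.497 CPM in CASK KO, against 3.86, 3.43 and 2.98 CPM in CASK control, but Ifit2 was at 8.32, 8.75 and 8.88 CPM in CASK KO, against 12.2, 13.9 and 13.5 CPM in CASK control. The endothelial markers, 9 of 10 with higher means, summed to 437 to 465 CPM in CASK KO and 238 to 438 CPM in CASK control, and macrophage markers, 9 of 10 with lower means, to 56.5 to 89.0 CPM in CASK KO and 62.1 to 122 CPM in CASK control. Their part in the interferon list was not tested. Of p53 targets, 16 of 25 had lower means (median -0.10), with 3 lower and 1 higher at an unadjusted p under 0.05. Below all controls were 5 of them, and 1 was above all controls. Phlda3, Perp and Eda2r were below all controls (log2 fold changes -0.98, -0.74 and -0.74). Plk3 went the other way, with log2 fold changes of 0.56 to 0.81 over 15 alternatives. Heat shock, folding, proteasome, ribosome, autophagy, cell cycle and clock lists had medians between -0.09 and 0.03 and at most 3 genes at an unadjusted p under 0.05 in either direction.

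Among signalling and redox genes the counts were small and no member passed. Of oxidative stress genes, 18 of 26 had lower means (median -0.19), 4 of them at an unadjusted p under 0.05. Gpx3, the secreted glutathione peroxidase, was at 50.8, 56.5 and 46.1 CPM in CASK KO, against 87.7, 117 and 65.0 CPM in CASK control (log2 fold change -0.82, SE 0.22), and Nfe2l2, the factor that raises antioxidant genes, had a log2 fold change of -0.40 (SE 0.15), both below all controls. Tkt, transketolase of the pentose phosphate pathway, was above them (0.61, SE 0.15). Grk5, a kinase that desensitises adrenergic receptors, was at 17.9, 13.6 and 15.0 CPM in CASK KO, against 32.4, 25.7 and 20.1 CPM in CASK control, while Adcy6, the main adenylyl cyclase of heart muscle, was at 126, 141 and 154 CPM in CASK KO, against 105, 101 and 104 CPM in CASK control. Dusp1, a phosphatase of mitogen-activated kinases, was at 47.8, 51.2 and 59.9 CPM in CASK KO, against 33.1, 21.99 and 33.3 CPM in CASK control (log2 fold change 0.85, SE 0.20). For these 3 signalling genes no library of one group reached the other. Camk2b, a calmodulin-dependent kinase (log2 fold change 0.80, SE 0.23), and Klf15, a factor of cardiac metabolism (0.59, SE 0.19), were also above all controls. In antigen presentation 17 of 22 had higher means (median 0.16), yet the immunoproteasome gene Psmb10 was below all controls (-0.64, SE 0.18).

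**Figure D4:**
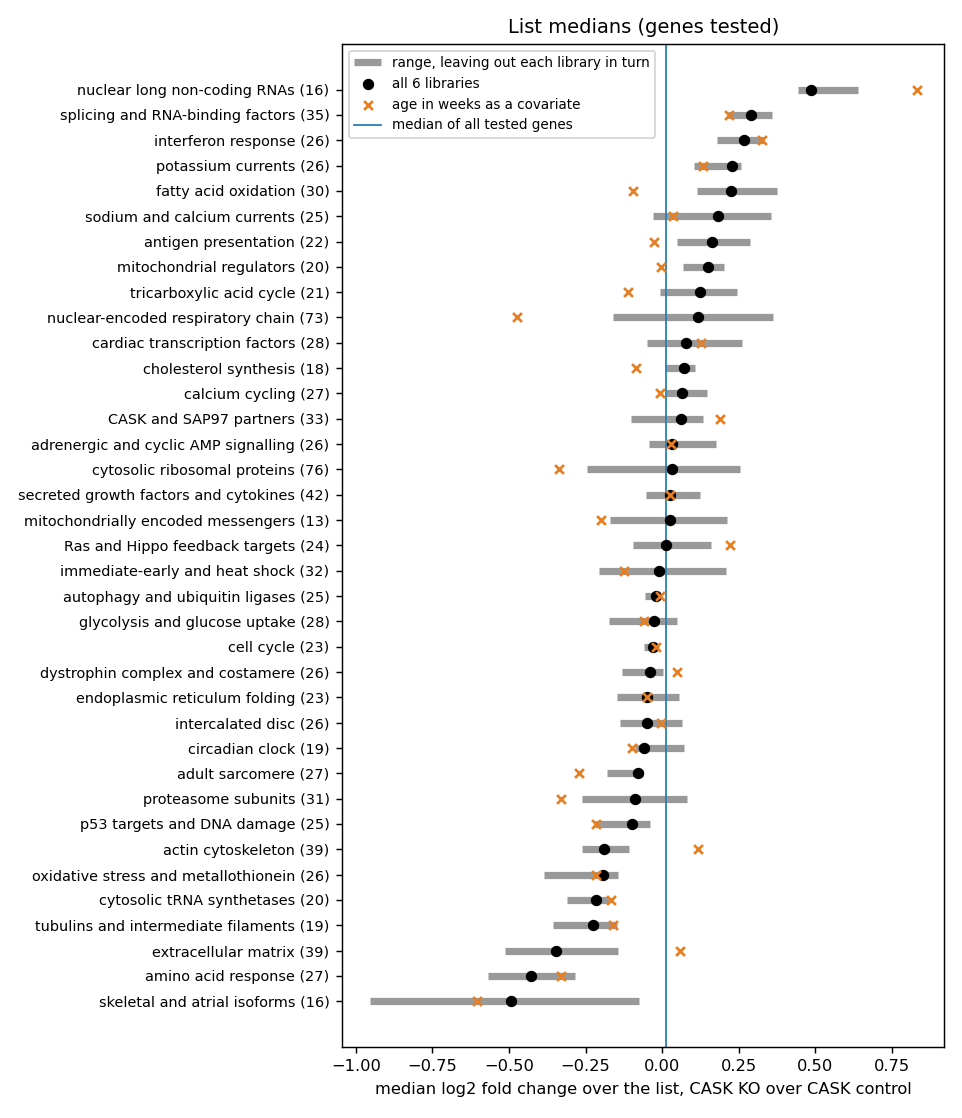
Median log2 fold change of CASK KO over CASK control (horizontal axis) for 37 gene lists, with the number of tested genes in parentheses. Black points use all 6 libraries, grey bars span the medians when each library is left out in turn, orange crosses are from the fit with age in weeks, and the blue line is the median of all tested genes (0.01). Nuclear long non-coding RNAs are at the top (0.49) and the amino acid response (-0.43) and skeletal and atrial isoforms (-0.49) at the bottom, and the cross of the extracellular matrix lies at 0.06, away from its point at -0.35.

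Other genes with the smallest p-values among those of at least 5 CPM were spread over several functions. Ssbp2, a single-stranded DNA-binding cofactor, was at 10.5, 10.2 and 10.7 CPM in CASK KO, against 5.61, 4.80 and 5.18 CPM in CASK control (log2 fold change 1.01, SE 0.15). Lgals4, galectin 4, was at 15.1, 21.7 and 15.0 CPM in CASK KO, against 4.05, 5.58 and 8.598 CPM in CASK control. Tmlhe, the first enzyme of carnitine synthesis, had a log2 fold change of 0.87 (SE 0.17). Ephx1, microsomal epoxide hydrolase, was at 17.1, 17.8 and 16.2 CPM in CASK KO, against 31.9, 41.6 and 32.2 CPM in CASK control (log2 fold change -1.05, SE 0.15). Serpinb6b, a protease inhibitor gene with close paralogs, was at 33.5, 42.8 and 40.4 CPM in CASK KO, against 74.0, 89.3 and 78.0 CPM in CASK control. For none of these genes did a library of one group reach the other. Mmp23, a metalloprotease (-1.61, SE 0.23), Pcolce, an enhancer of procollagen processing (-0.86, SE 0.13), Haus8, of the augmin complex (-0.83, SE 0.14), Tspyl5 (-0.89, SE 0.14) and Dpysl3 (-1.12, SE 0.18) were likewise below all controls. Their edgeR adjusted p-values lay at 0.138 or above without the block.

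Set beside the other groups of the series, the CASK control mean lay outside the range of the others for most of these genes. These were 3 SAP97 KO mice (floxed SAP97 with MHC-Cre, mixed background, 10.7 to 13 weeks), 3 SAP97 control mice (floxed without Cre, mixed background, 10.6 to 13 weeks), 4 MDX mice with counts used here (no dystrophin protein, C57Bl/6Ros or a backcross, 10.9 to 17.7 weeks) and 5 MDX control mice (wild type, C57Bl/6 strains or a backcross, 10.9 to 14.7 weeks). Strain, Cre and age thus differ between the lines and cannot be told apart here. The libraries were scaled together by TMM, and the levels are set side by side with no test. Dmd was at 171 ± 27.5 CPM in CASK KO and 46.9 ± 4.04 CPM in CASK control (SD, n = 3 each). The means of the other 4 groups ranged from 101 CPM in MDX, the line without dystrophin protein, to 347 CPM in SAP97 control. SAP97 KO was at 183 CPM and MDX control at 289 CPM, so the CASK KO mean of Dmd was inside this range only through MDX. Mybpc2 was at 21.6 ± 4.66 CPM in CASK KO and 76.1 ± 11.3 CPM in CASK control (SD, n = 3 each), with 13.9 to 22.9 CPM elsewhere. Mthfd2 was at 2.03 ± 0.57 CPM in CASK KO and 9.32 ± 1.71 CPM in CASK control (SD, n = 3 each), with 0.923 to 3.29 CPM elsewhere. Of the 11 genes that passed with the block, 9 had the CASK KO mean inside the range of the other 4 groups and the CASK control mean outside it, 2 had both outside, and 0 had the CASK KO mean alone outside. For the 20 genes of smallest p, these numbers were 10, 7 and 0, with 3 inside in both.

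**Figure D5:**
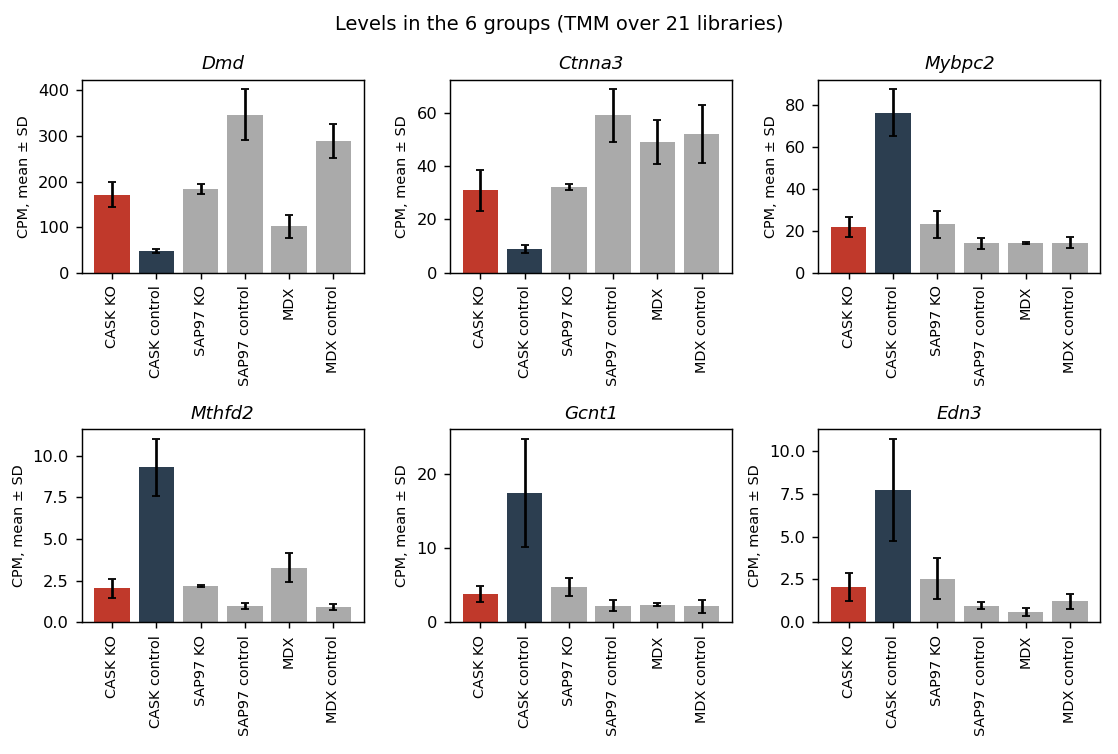
Mean CPM with SD (bars from 0) of 6 genes in the 6 groups of the series, scaled by TMM over 21 libraries (n = 3 in CASK and SAP97 groups, 4 in MDX and 5 in MDX control). CASK KO is red, CASK control dark and the other groups grey. CASK control is the lowest bar for Dmd and Ctnna3 and the highest for Mybpc2, Mthfd2, Gcnt1 and Edn3, and the CASK KO and SAP97 KO bars overlap within 1 SD in all 6 panels.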

How the data were processed

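Ventricular cardiomyocytes were isolated by Langendorff perfusion with collagenase, and stranded libraries were made after depletion of ribosomal RNA, with short inserts removed. The deposited counts are whole numbers of read pairs per gene, made by the authors with TopHat2 2.0.13 on GRCm38 and HTSeq 0.6.1, with no further scaling. Sources differ on the Ensembl release (83 or 87) and on Bowtie2 (2.2.1 or 2.2.4), and the strand setting of counting is not given in the sources used here. The authors' fold changes and p-values from DESeq2, deposited beside the counts, were not used.

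The tests used edgeR 4.0.16 under R 4.3.3 (filterByExpr, TMM, quasi-likelihood F test, 2-sided, Benjamini-Hochberg over 14963 genes), with 0.01 as the limit of the adjusted p for a call. SEs were derived from the F statistic as the size of the log2 fold change divided by its square root. DESeq2 1.42.0 served as an alternative. The code was tested on simulated data. Deviations from group means correlated at 0.44, 0.22 and 0.19 between libraries of the same number. Between CASK KO and CASK control libraries of unlike number the correlations ran from -0.41 to 0.15, the last for CASK KO replicate 2 with CASK control replicate 3. The numbers were taken to pair the samples, as a property of the data, since the labels name no shared litter or batch. Symbols missing for 1114 genes were filled for 922 from GENCODE vM21. Named genes were the 10 of smallest p in each direction at 5 CPM or more, up to 4 of smallest p in each list, and genes the study is about. Fgf21, Psat1, Pycr1, Aldh18a1, Slc3a2, Cth, Atf4, Atf3, Ddit3, Utrn, Kcnj3, Scn3b, Mhrt and Atp2a2 fall outside this rule and were named after their values were seen, as were the medians of gene classes and the counts without single libraries. Some members of the ion channel lists are not reported here. Members and lists were chosen with earlier results of these data known. Plots used matplotlib 3.10.9.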

Additional observations from a re-analysis of the deposited data

How the results depend on the processing

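The count of genes called (0 by the unblocked edgeR fit) was also 0 with DESeq2 size factors in edgeR, without mitochondrially encoded genes, with a filter of 1 CPM in 3 libraries, with a robust prior, with age as a covariate, at an adjusted p of 0.05, and without each library in turn (0 to 0). It was 11 with the replicate block, 116 with DESeq2, 182 with no filter, 1 without scaling factors and 6 at an adjusted p of 0.1. The cause of these differences was not tested. Of 107 named genes with an unadjusted p under 0.05, 105 kept their direction under 15 alternatives. The fold of 23 of these 107 moved by over 1.5 times with age as a covariate, 22 of them toward no difference, of Ryr1 without CASK KO replicate 1 (-2.05) and of Ankrd2 (-3.05) and Timp1 (-2.83) without CASK KO replicate 2. The 2 that did not keep their direction were Cilp (0.10) and Postn (0.057) with age as a covariate. Among genes whose groups overlapped, age turned Gja1 (-0.018), Kcna5 (0.24) and Kcnip2 (-0.22). Total counts without scaling factors turned Dlg1 (-0.042). The log2 fold change changed sign within the range over libraries left out for Cacna1c (-0.083 to 0.39), Dlg1 (-0.012 to 0.094), Id1 (-0.12 to 0.34) and Kcnd3 (-0.31 to 0.38). The cause was not tested. The medians of 14 of 38 lists kept their sign under all alternatives, and 12 lists had the other sign with age. Most CASK KO mice were younger than the controls, so age and genotype can be told apart only in part. With 3 mice a group, each p-value sets a group difference against the spread between these mice, estimated with information shared across genes. With the block, it is the spread left after the replicate terms.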
